A study of Homo sapiens with 4 samples.

Results

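The COPI, COPII and Golgi transport genes are 59 genes chosen by name for their roles in transport from the 23362 genes of an expression table of MKN28 cells, a human gastric adenocarcinoma cell line. They fall into 8 classes, namely 9 subunits of the COPI coat, 9 subunits or organizers of the COPII coat, 6 small GTPases, 4 regulators of ARF GTPases, 10 golgins and tethers, 13 cargo receptors, 5 genes of the SNARE and YIPF5 class and 3 CREB3 transcription factors. All 59 were found in the table, and 56 of them were among the 11769 genes with at least 1 FPKM (fragments scaled for transcript length and library size) in at least 1 library. The 3 that did not reach 1 FPKM in any library were COPZ2, a second form of the COPI zeta subunit, BET1, a SNARE of endoplasmic reticulum (ER) to Golgi transport, and CREB3L1.

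Proteins leave the ER in vesicles that carry the COPII coat. SAR1 bound to GTP recruits SEC23 and SEC24 in an inner layer, of which SEC24 binds cargo, and SEC13 and SEC31 in an outer layer. The COPI coat, a complex called coatomer that ARF GTPases bring to the membrane, carries escaped ER residents and recycling machinery back. Golgins and tethers capture arriving vesicles and hold the Golgi stack together, SNAREs fuse the membranes, and cargo receptors such as the KDEL receptors and the p24 proteins sort what is carried. CREB3, CREB3L1 and CREB3L2 are membrane-anchored factors that are cut by proteases in the Golgi to release a DNA-binding part, and CREB3 and ARF4 are known from the response to Golgi stress.

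RNA of 4 groups of MKN28 cells was sequenced, with 1 library for each. All were lines with a doxycycline-dependent (tet-on) viral construct. That of Luc, the control, encoded luciferase, and those of the other groups encoded HA-tagged KIAA1324 WT, the 3NQ form in which the asparagines of the N-glycosylation sites are changed to glutamine, or the ΔTM form without the transmembrane domain. The sources used here do not say whether each line was a single clone, nor how long the construct was induced before RNA was taken. KIAA1324 had an FPKM of 2.86 in Luc against 11185 in WT and 8197 in 3NQ, and it was listed at 0 in the last library, which is therefore called the ΔTM-labelled library. A listed 0 can be a failed estimate. Because no group was replicated, no difference below had a replicate check, no test was made, and the spread between cultures of one kind is unknown. The depth of the libraries is unknown too, since the table holds no counts. Their FPKM summed to between 560540 and 585104, and 11297 to 11406 genes reached 1 FPKM. Epithelial markers EPCAM, CDH1, KRT8, KRT18 and KRT19 averaged from 249 to 6571 FPKM, while 3 leukocyte and 2 endothelial markers stayed under 1 in each library. Of 3 fibroblast markers, COL1A1 had 12.1 to 15.3 FPKM, and COL1A2 and DCN stayed under 1. KRT8 and KRT18 were lower in WT than in Luc, with log2 ratios of −0.91 and −0.80. Their part in the results below was not tested.

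Sequences before the start sites were examined because several elements are known to control Golgi and ER genes. RefSeq windows of 300 bases (GRCh38.p14, 250 bases before to 50 after the annotated start) were matched by symbol for 52 of the 59 genes, in 68 windows. On both strands, 5 elements were searched, namely the Golgi apparatus stress response element GASE (ACGTGGC), the core of the unfolded protein response element UPRE (TGACGTG), the cyclic AMP response element CRE (TGACGTCA), the ER stress response element ERSE (CCAAT, 9 bases, CCACG) and the CCAAT box alone. GASE and the UPRE core share 5 letters and can overlap. By the rule that the 4 highest WT to Luc ratios among genes with an element other than the CCAAT box are shown, the windows are those of KDELR3, GOLGA3, CREB3 and ACBD3. Each matched GRCh37 exactly at 1 place, at chr22:38863851-38864150 on the plus strand, chr12:133405406-133405705 on the minus strand, chr9:35732413-35732712 on the plus strand and chr1:226374393-226374692 on the minus strand. They are written from 5′ to 3′ in the direction of the gene, and capitals mark the elements.
KDELR3: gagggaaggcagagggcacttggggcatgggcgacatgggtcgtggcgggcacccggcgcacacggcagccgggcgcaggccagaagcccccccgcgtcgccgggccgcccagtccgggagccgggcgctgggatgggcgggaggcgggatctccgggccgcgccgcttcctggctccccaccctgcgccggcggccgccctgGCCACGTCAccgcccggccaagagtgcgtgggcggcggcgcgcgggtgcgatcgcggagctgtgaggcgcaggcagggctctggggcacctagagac
GOLGA3: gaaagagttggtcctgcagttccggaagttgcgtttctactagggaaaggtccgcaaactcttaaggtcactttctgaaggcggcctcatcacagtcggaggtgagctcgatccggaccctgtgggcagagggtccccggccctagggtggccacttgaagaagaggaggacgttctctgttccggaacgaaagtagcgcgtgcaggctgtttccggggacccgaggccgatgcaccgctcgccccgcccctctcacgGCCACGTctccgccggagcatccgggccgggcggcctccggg
CREB3: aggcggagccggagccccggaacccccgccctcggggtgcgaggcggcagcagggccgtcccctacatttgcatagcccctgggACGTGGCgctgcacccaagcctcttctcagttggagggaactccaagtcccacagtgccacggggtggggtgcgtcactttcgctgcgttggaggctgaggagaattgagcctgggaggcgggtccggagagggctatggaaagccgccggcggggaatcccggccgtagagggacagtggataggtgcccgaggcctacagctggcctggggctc
ACBD3: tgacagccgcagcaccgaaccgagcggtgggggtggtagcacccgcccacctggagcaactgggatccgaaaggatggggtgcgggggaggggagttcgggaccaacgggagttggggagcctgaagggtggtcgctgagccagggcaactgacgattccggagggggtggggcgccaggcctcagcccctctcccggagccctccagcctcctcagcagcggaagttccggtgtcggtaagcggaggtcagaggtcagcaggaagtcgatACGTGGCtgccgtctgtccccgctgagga
In the KDELR3 window the run GCCACGTCA holds GASE and the UPRE core on the minus strand, overlapping, and begins 47 bases before the annotated start. The CREB3 window holds GASE 166 bases before the start, and those of GOLGA3 and ACBD3 hold it 8 and 21 bases after the start. In the annotation used for the FPKM, CREB3 begins at chr9:35732332, ahead of this window, so there the element lies within the gene. A match is a description of letters and not a bound site.

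GASE was present in 28 of the 68 windows of the transport genes (41.2%), against 4.26% of the windows of all genes that passed the FPKM filter and 3.22% of all 35116 windows. Counted by gene, 23 of 52 transport genes (44.2%) held it, against 5.86% of 8595 genes passing the filter. The UPRE core was in 17 windows (25%), against 2.50% and 1.97%, and both elements overlapped in a run of 9 letters in 8 windows (11.8%), against 0.268% of all windows. The CCAAT box was no more frequent in the transport genes (32.4% of windows) than in the genes passing the filter (34.8%), CRE was in 1 window (1.47%, against 2.83%), and ERSE was in none (against 0.135%). GASE and the UPRE core were thus the elements by which these windows stood above the background.

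Among the classes, GASE was found in 6 of 8 COPII genes (SEC13, SEC16A, SEC23A, SEC24A, SEC24C and SEC31A), in 5 of 8 golgins and tethers, in 4 of 9 COPI genes and in 4 of 11 cargo receptors. It was in 2 of 5 small GTPases, 1 of 5 genes of the SNARE and YIPF5 class, 1 of 3 CREB3 factors (CREB3 itself) and 0 of 3 ARF regulators. The 22 transport genes with GASE that passed the FPKM filter had a median log2 ratio of WT to Luc of 0.43, and 9 were at least 1.5-fold higher in WT. The 27 without it had a median of 0.085, and 4 were higher. Outside the transport genes the distance was smaller. There, 482 genes with GASE had a median of 0.054 and 5.81% were at least 1.5-fold higher in WT, against −0.0080 and 2.85% for 8064 genes without it. GASE genes outside the list were also called higher more often in 3NQ, at 4.77% against 1.26%. For the UPRE core the share called in WT was alike within the transport genes, with 4 of 15 (26.7%) against 9 of 34 without it (26.5%). Their median ratios of WT to Luc did differ, at 0.42 with the core and 0.17 without it. Outside the transport genes the share called was 8.16% of 282 genes against 2.84% of 8264. The medians there were 0.049 and −0.0066. The CCAAT box split the transport genes as well, with the higher values in those without it. The 30 genes without it had a median ratio of WT to Luc of 0.37 and 10 called, and the 19 with it 0.18 and 3. Outside the transport genes 3.11% with it and 2.95% without it were called. ARF4, ARFGAP1 and SEC24D were called in WT but had no window, so they enter none of these splits.

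**Figure D1:**
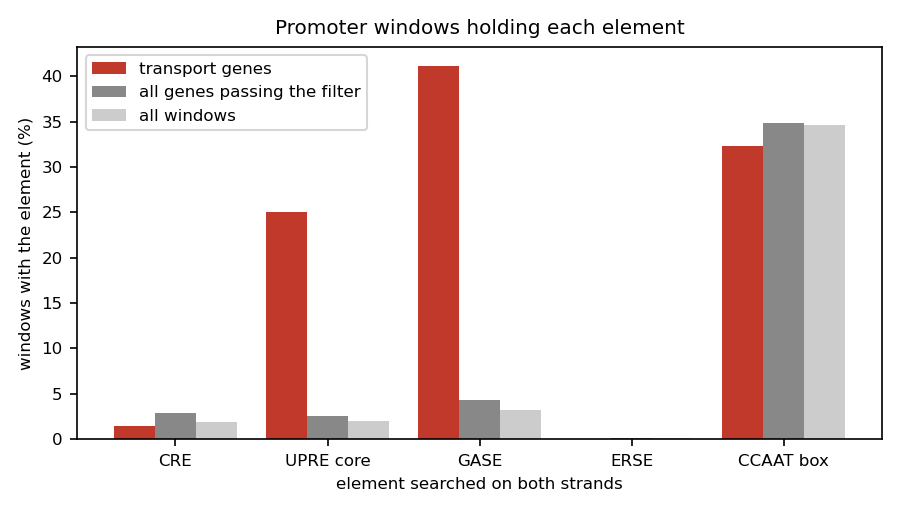
Share of RefSeq promoter windows, in percent (vertical axis), that hold each of 5 elements (horizontal axis), for the 68 windows of the transport genes, the windows of all genes passing the FPKM filter and all 35116 windows. GASE (41.2%) and the UPRE core (25%) stand above both backgrounds in the transport genes, and the CCAAT box (32.4%) does not.

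Ratios between libraries were taken as log2(FPKM + 1), which understates the change of genes with low values, and a ratio of 1.5-fold or more in either direction was counted as a call (0.58 on the log2 scale). Of the 56 transport genes, 16 were higher and 0 lower in WT than in Luc. The background over the 11769 genes was 3.36% higher and 3.34% lower, whereas the 16 genes make 28.6% of the transport genes. The list was chosen with earlier results of these data known, so its excess over the background is not independent of them. The median ratio of the transport genes was 0.35, with 47 above 0 and 9 below, against a median of −0.0049 over all genes. The 3NQ library differed less from Luc. There the median was 0.19, 48 genes were above 0, and 0 were called in either direction, where 1.77% of all genes were higher and 2.57% lower and the median of all genes was −0.038. For the ΔTM-labelled library the median was 0.038, 35 genes were above 0, and 1 (USO1) was called higher and 0 lower, where the background was 1.54% higher and 1.57% lower and the median of all genes was −0.060. Rescaling of the FPKM by the median of ratios moved the background of this last comparison to 1.89% higher and 1.23% lower. These 3 comparisons share the Luc library, so a value that is off in Luc moves all of them.

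Across the 4 libraries, 37 of the 56 transport genes (66.1%) had their highest FPKM in WT and 12 in 3NQ (21.4%). The highest FPKM was in Luc for 4 (7.14%) and in the ΔTM-labelled library for 3 (5.36%). Over all genes, 33.6% were highest in WT, 19.0% in 3NQ, 30.6% in Luc and 16.8% in the ΔTM-labelled library. The classes were not alike. The cargo receptors had 4 of 13 genes highest in WT (30.8%) and 7 of 13 highest in 3NQ (53.8%). The other 43 genes had 33 highest in WT (76.7%). The median ratio of WT to Luc was highest for the SNARE and YIPF5 class (0.57, 4 genes) and the COPII coat (0.54, 9 genes), followed by golgins and tethers (0.44), ARF regulators (0.41), the COPI coat (0.34), CREB3 factors (0.33, 2 genes of opposite direction) and small GTPases (0.21). Cargo receptors were lowest, at 0.11. Every class median was above 0 in WT and in 3NQ under both rescalings that were tried. In the ΔTM-labelled library the class medians lay between −0.069 and 0.19, and those of the COPI coat and the small GTPases turned from below to above 0 on rescaling.

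**Figure D2:**
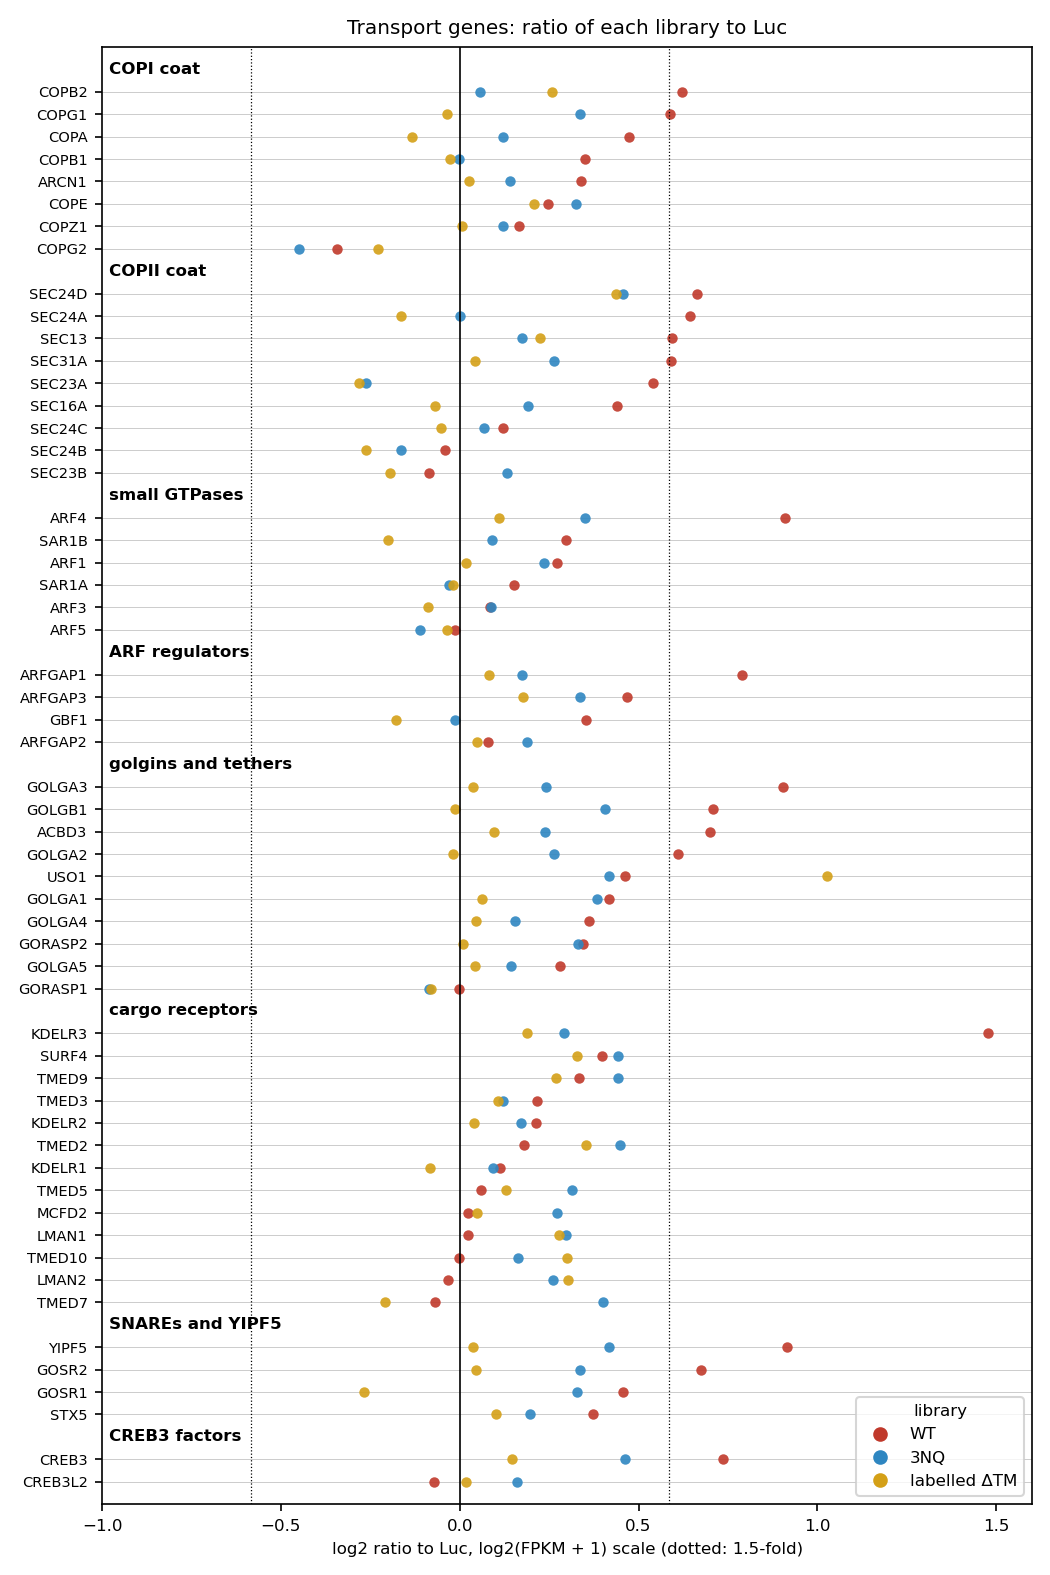
Log2 ratio to Luc on the log2(FPKM + 1) scale (horizontal axis) of the 56 transport genes that passed the filter, grouped by class, with 1 point for the single library of WT, 3NQ and the ΔTM-labelled library. The dotted lines mark 1.5-fold. In WT 16 genes lie beyond the right line, from COPG1 at 0.59 to KDELR3 at 1.48, and the only point of another library beyond it is USO1 at 1.03.

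Coatomer subunits were mostly higher in WT, with 7 of 8 measured genes above Luc and 2 called. COPB2, the beta prime subunit that binds retrieval signals on cargo, was the most abundant subunit. Its FPKM was 246 in Luc against 379 in WT, 256 in 3NQ and 295 in the ΔTM-labelled library, a log2 ratio of 0.62 in WT. COPG1, a gamma subunit, had 101, 152, 128 and 98.4 FPKM in the same order, and its ratio of 0.59 was just past the threshold. COPA, the alpha subunit, was below the threshold, at 0.47, with 80.6, 112, 87.7 and 73.4 FPKM. The other subunits COPB1, ARCN1, COPE and COPZ1 had ratios from 0.16 to 0.35 in WT, and COPE was the one that was highest in 3NQ, at 58.2 FPKM against 55.2 in WT. COPB1 shares 6245 bases on the same strand with PSMA1, a gene of 281 to 374 FPKM.

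The gamma paralogs went opposite ways. COPG2 had 21.9 FPKM in Luc against 17.03 in WT, 15.8 in 3NQ and 18.6 in the ΔTM-labelled library, with ratios to Luc of −0.34, −0.45 and −0.23. It was the one COPI gene highest in Luc and had the lowest ratio in WT of all 56 genes, though it was not called. Of the summed FPKM of COPG1 and COPG2, COPG2 made 17.8% in Luc against 10.1% in WT, 11% in 3NQ and 15.9% in the ΔTM-labelled library. COPZ2, the paralog of COPZ1, was listed at 0 in all libraries but the one labelled ΔTM, where it had 0.32 FPKM.

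In the COPII coat, both layers and SEC16A, which organizes ER exit sites, contributed to the higher median in WT, and 4 of 9 genes were called. In the outer layer, SEC13 had 63.0 FPKM in Luc against 95.6 in WT, 71.2 in 3NQ and 73.8 in the ΔTM-labelled library, and SEC31A had 67.1, 102, 80.8 and 69.2. Their ratios in WT were 0.594 and 0.591, so both lay just past the threshold. SEC31A overlaps THAP9-AS1, a gene of at most 8.53 FPKM, and THAP9, and SEC16A had a ratio of 0.44.

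Within the inner layer, paralogs of the same subunit differed. SEC24A, a cargo-binding subunit, had 21.8 FPKM in Luc against 34.7 in WT, 21.8 in 3NQ and 19.3 in the ΔTM-labelled library, so that WT stood apart from the other libraries. SEC24D had a similar ratio in WT (0.66) but at 1.76, 3.37, 2.78 and 2.73 FPKM, and here 3NQ (0.46) and the ΔTM-labelled library (0.44) were above Luc as well. SEC24B and SEC24C did not follow. SEC24B had 25.1, 24.4, 22.3 and 20.8 FPKM, and SEC24C, the most abundant form, had 68.2, 74.3, 71.5 and 65.7. SEC24A thus went from 18.7% of the summed SEC24 FPKM in Luc to 25.4% in WT, with 18.4% in 3NQ and 17.8% in the ΔTM-labelled library.

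The paralogs of SEC23, the subunit that stimulates GTP hydrolysis by SAR1, differed as well. SEC23A (ENSG00000100934, chr14:39501123-39578850 on the minus strand) had 41.8 FPKM in Luc against 61.2 in WT, 34.7 in 3NQ and 34.2 in the ΔTM-labelled library. It was therefore higher than Luc in WT (0.54, not called) and lower than Luc in 3NQ and the ΔTM-labelled library (−0.26 and −0.28). SEC23B, the more abundant paralog, had 110, 104, 121 and 96.1 FPKM, below Luc in WT (−0.09, the lowest WT ratio of the COPII genes) and above it in 3NQ (0.13). SEC23A made 27.5% of the summed SEC23 FPKM in Luc against 37.1% in WT, 22.3% in 3NQ and 26.3% in the ΔTM-labelled library.

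Of the GTPases that start coat assembly, ARF4 (ENSG00000168374, chr3:57557090-57583947 on the minus strand) alone was called. It had 153 FPKM in Luc against 289 in WT, 195 in 3NQ and 165 in the ΔTM-labelled library, with ratios of 0.91, 0.35 and 0.11. ARF1, the most abundant of the GTPases and the classical recruiter of coatomer, had 271, 327, 319 and 274 FPKM, so that WT and 3NQ were close to each other and above the other libraries. ARF3 (92.9, 98.5, 98.8 and 87.2) and ARF5 (65.5, 64.9, 60.5 and 63.8) differed little between libraries. As a share of the summed FPKM of the 4 ARF genes, ARF4 went from 26.3% in Luc to 37.0% in WT, against 29.0% in 3NQ and 28.0% in the ΔTM-labelled library. The COPII GTPases SAR1A and SAR1B had ratios of 0.15 and 0.30 in WT, and neither was called. SAR1B lies head to head with SEC24A on the opposite strand and shares 483 bases with it, and the library kit is not described as keeping strand.

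ARFGAP1, which stimulates GTP hydrolysis by ARF1 on the Golgi, was the called gene among the regulators. Its FPKM was 15.3 in Luc against 27.2 in WT, 17.4 in 3NQ and 16.2 in the ΔTM-labelled library, and the ratios were 0.79, 0.17 and 0.08. The exchange factor GBF1, which loads ARF1 with GTP, had a ratio of 0.35 in WT against −0.01 in 3NQ and −0.18 in the ΔTM-labelled library. ARFGAP3 lay under the threshold (0.47) and ARFGAP2, the most abundant at 55.9 to 63.8 FPKM, had the lowest ratio (0.08). ARFGAP3 shares 22695 bases on the same strand with PACSIN2, a gene of 124 to 144 FPKM.

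Among golgins and tethers, 9 of 10 genes were above Luc in WT and 4 were called. GOLGA3, a coiled-coil protein of the Golgi surface, had 27.01 FPKM in Luc against 51.4 in WT, 32.1 in 3NQ and 27.7 in the ΔTM-labelled library, with ratios of 0.90, 0.24 and 0.04. GOLGB1 (giantin, an integral golgin that tethers COPI vesicles) had 12.3, 20.8, 16.7 and 12.2 FPKM. ACBD3, which binds giantin and recruits a phosphatidylinositol kinase, had 22.7, 37.5, 26.96 and 24.4. GOLGA2 (GM130, the cis-Golgi partner of the tether p115) had 49.2, 75.7, 59.3 and 48.5. In these 4 genes WT was the highest library, 3NQ came next, and the ΔTM-labelled library lay within 0.10 of Luc on the log2 scale. GOLGA3 overlaps POLE on the same strand over its whole length of 59950 bases as the table lists both genes. POLE itself was lower in WT (20.6 FPKM) than in Luc (28.0), opposite to GOLGA3.

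GOLGA1, GOLGA4, GOLGA5 and the stacking protein gene GORASP2 had smaller differences of the same direction, with ratios from 0.28 to 0.42 in WT. GORASP1, the cis-Golgi stacking protein that pairs with GM130, was at 28.2 FPKM in both Luc and WT and 26.5 and 26.7 in the others, the lowest ratio of the class (0.00). USO1, which encodes p115, differed from all other transport genes. It had 164 FPKM in Luc against 226 in WT, 219 in 3NQ and 335 in the ΔTM-labelled library, where its ratio of 1.03 was the only call outside WT.

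All 4 measured genes of the SNARE and YIPF5 class had their highest FPKM in WT. YIPF5 (ENSG00000145817, chr5:143537723-143550278 on the minus strand), a membrane protein of the early secretory pathway, had 32.9 FPKM in Luc against 62.9 in WT, 44.3 in 3NQ and 33.8 in the ΔTM-labelled library, with ratios of 0.91, 0.42 and 0.04. GOSR2, a Golgi SNARE, had 29.5, 47.7, 37.5 and 30.5 FPKM, a ratio of 0.68 in WT. GOSR1, also a Golgi SNARE, had 41.5, 57.3, 52.3 and 34.3 FPKM. It was above Luc in WT (0.46) and 3NQ (0.33) and below Luc in the ΔTM-labelled library (−0.27). STX5, the syntaxin of cis-Golgi fusion, had the lowest ratio in WT (0.37). BET1 had 0.25 to 0.38 FPKM and was not compared.

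**Figure D3:**
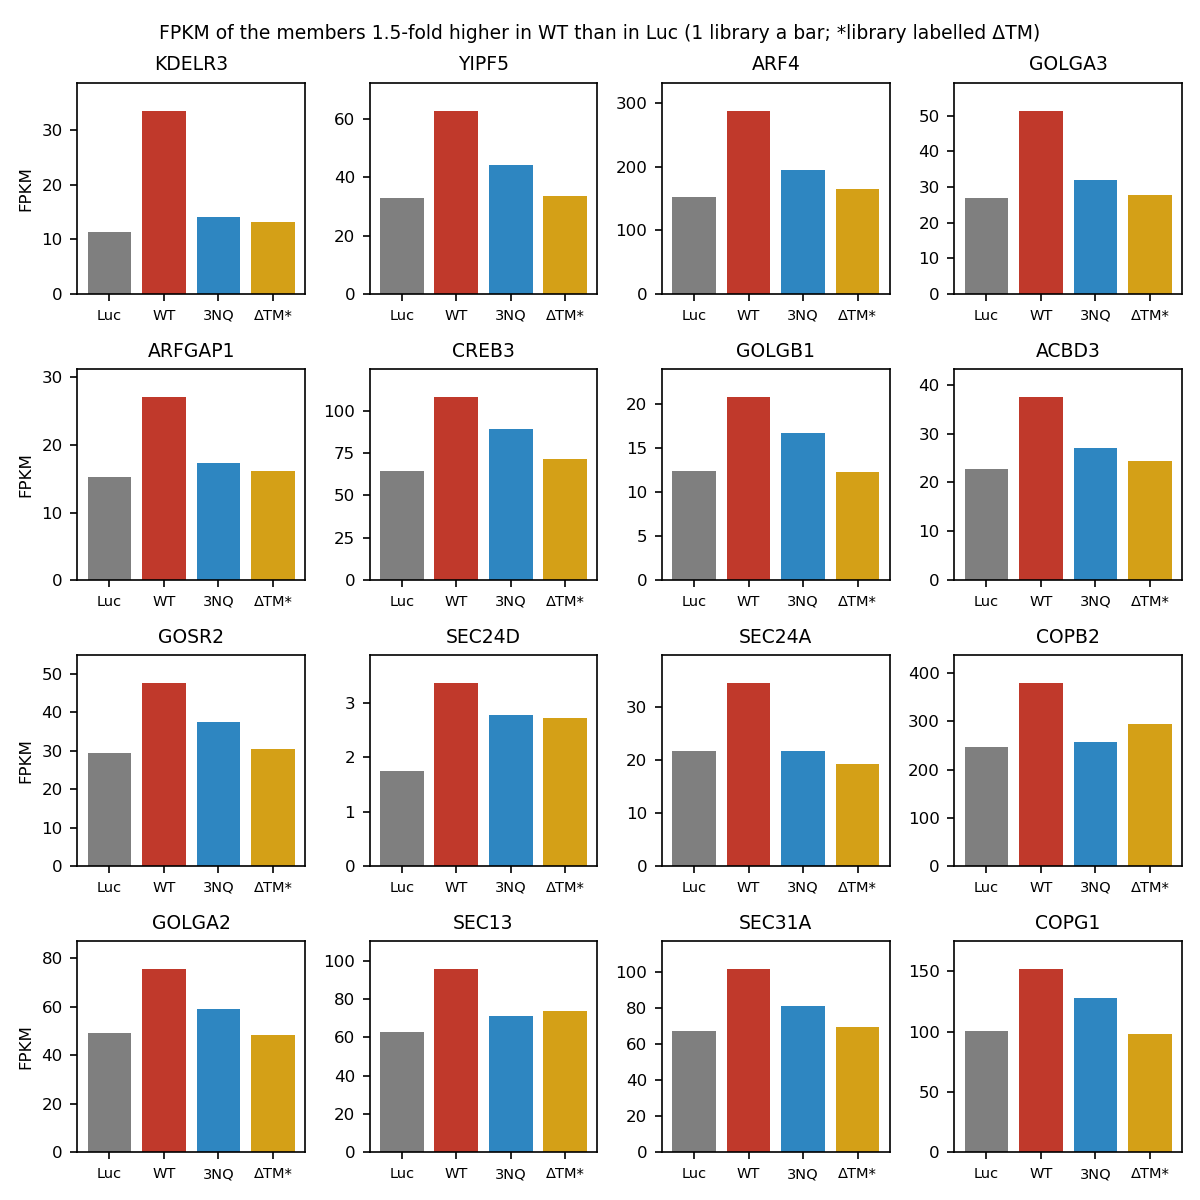
FPKM (vertical axis, from 0, own scale for each gene) in the single Luc, WT, 3NQ and labelled ΔTM libraries for the 16 transport genes at least 1.5-fold higher in WT than in Luc. WT is the highest bar for each gene, and KDELR3 (11.4 against 33.6 FPKM) has the largest step.

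As a class, the cargo receptors did not share the pattern of the coats and golgins, and KDELR3 alone was called in WT. KDELR1, KDELR2 and TMED3 also had their highest FPKM in WT, with ratios to Luc from 0.11 to 0.22. SURF4 (0.40) and TMED9 (0.33) had WT ratios near the COPI median (0.34) but were highest in 3NQ. The KDEL receptors return escaped ER chaperones from the Golgi. KDELR3 (ENSG00000100196, chr22:38864067-38879452 on the plus strand of GRCh37) had 11.4 FPKM in Luc against 33.6 in WT, 14.2 in 3NQ and 13.2 in the ΔTM-labelled library, the largest ratio of any transport gene (1.48) and the one that passed 2-fold in WT. The abundant receptors were nearly level. KDELR2 had 238, 276, 268 and 244 FPKM and KDELR1 had 109, 118, 116 and 103. KDELR3 accordingly made 3.19% of the summed KDEL receptor FPKM in Luc and 7.86% in WT, against 3.56% in 3NQ and 3.65% in the ΔTM-labelled library, and KDELR2 made the larger part in all libraries.

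The p24 genes (TMED) build transmembrane cargo adaptors, and LMAN1 and LMAN2 are lectin-like receptors with MCFD2 as their partner. Of those listed, all but TMED3 were higher in 3NQ than in WT. This subset of 9 genes was put together after its values were seen. Its median ratio to Luc was 0.02 in WT against 0.30 in 3NQ and 0.27 in the ΔTM-labelled library, and 8 of the 9 genes were lower in WT than in 3NQ, under both rescalings too. Measured relatives outside the list were mixed. Their ratios of WT to 3NQ were 0.06 for TMED1, 0.03 for TMED8, 0.07 for LMAN2L and −0.21 for TMED4. TMED2 had 180 FPKM in Luc against 204 in WT, 246 in 3NQ and 230 in the ΔTM-labelled library. LMAN1, which with MCFD2 carries coagulation factors out of the ER, had 47.9, 48.7, 59.1 and 58.3, and LMAN2 had 99.6, 97.4, 120 and 123. For LMAN1 and LMAN2, Luc and WT formed the lower pair and 3NQ and the ΔTM-labelled library the upper pair. MCFD2 (182, 185, 220 and 188) was high in 3NQ alone. TMED7, at 11.9, 11.3, 16.0 and 10.1 FPKM, had the lowest ratio in WT of the class (−0.07) and the largest difference between WT and 3NQ (−0.47), and it overlaps the readthrough gene TMED7-TICAM2. TMED10 (190, 190, 212 and 234) was highest in the ΔTM-labelled library. SURF4, a receptor of soluble cargo, was above Luc in all 3 libraries (186, 245, 253 and 233).

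All 13 cargo receptors were above Luc in 3NQ and 9 were below 3NQ in WT, but none was called in 3NQ, so these are differences of small size. HSPA5, the ER chaperone BiP, which carries the retrieval signal that KDEL receptors bind and is a standard readout of ER stress, is given beside them. Its FPKM was 318 in Luc against 521 in WT, 1114 in 3NQ and 1028 in the ΔTM-labelled library, with ratios of 0.71, 1.80 and 1.69. It was thus higher in 3NQ and the ΔTM-labelled library than in WT, as were LMAN1, LMAN2, TMED2, TMED5 and TMED10, and unlike KDELR3. Its part in the values of the cargo receptors was not tested.

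**Figure D4:**
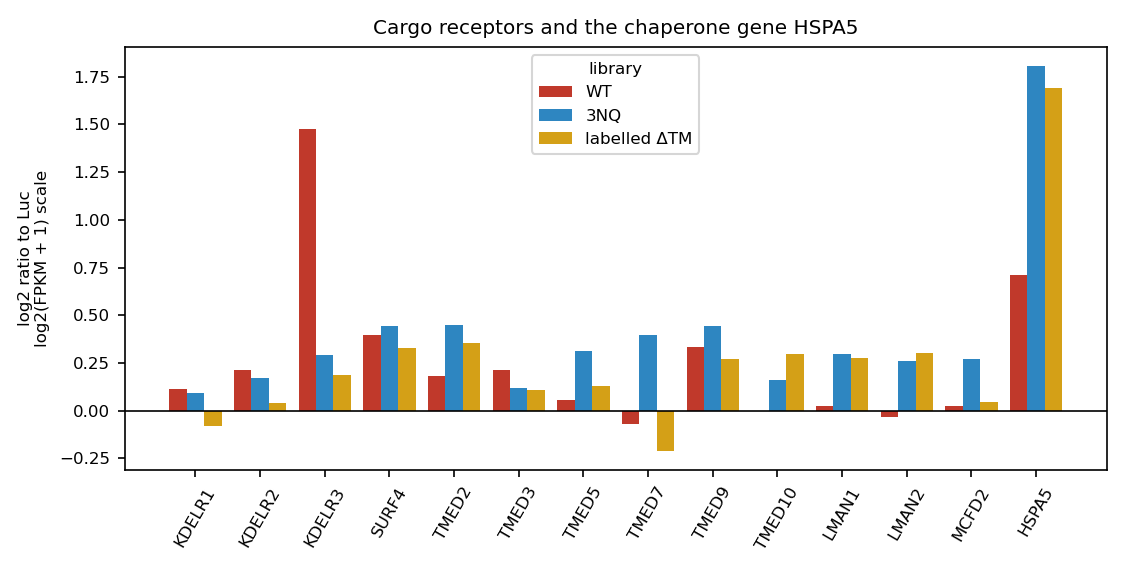
Log2 ratio to Luc on the log2(FPKM + 1) scale (vertical axis) of the 13 cargo receptors and of HSPA5, with 1 bar each for WT, 3NQ and the ΔTM-labelled library. KDELR3 has its tall bar in WT (1.48), whereas HSPA5 has its tall bars in 3NQ (1.80) and the ΔTM-labelled library (1.69), and the LMAN genes stand above 0.25 in 3NQ and the ΔTM-labelled library only.

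CREB3 (ENSG00000107175, chr9:35732332-35737001 on the plus strand) differed from its relatives. It had 64.6 FPKM in Luc against 108 in WT, 89.3 in 3NQ and 71.7 in the ΔTM-labelled library, with ratios of 0.74, 0.46 and 0.15, so its order of libraries, WT above 3NQ above the ΔTM-labelled library above Luc, was that of GOLGA3, YIPF5 and ARF4. On the log2(FPKM + 1) scale its 3NQ ratio (0.461) was the highest of the transport genes in that library, just above SEC24D (0.456). Without a pseudocount the order was the other way, with FPKM folds of 1.38 for CREB3 and 1.58 for SEC24D. CREB3L2 had 22.2, 21.0, 24.9 and 22.4 FPKM, a ratio of −0.07 in WT, and CREB3L1 had 0.82, 0.73, 0.56 and 0.64, under the filter in each library. CREB3 made 73.8% of the summed FPKM of the 3 factors in Luc and 83.3% in WT. These are transcript levels, and the cleavage that activates the factors was not measured. CREB3 overlaps TLN1 over 61 bases and GBA2 over 139 bases on the opposite strand.

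Set directly against 3NQ, the transport genes had a median ratio of 0.13 in WT, with 42 above 0 and 14 below. Only 5 were called higher, namely KDELR3 (1.19), SEC23A (0.80), GOLGA3 (0.66), SEC24A (0.64) and ARFGAP1 (0.62), and 0 lower. Over all genes 2.89% were higher and 1.58% lower, and the median was 0.025. The 5 genes come from 4 classes, and 2 of them are inner-layer COPII subunits. SEC23A was called here and not against Luc, since its 3NQ value lay below that of Luc.

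Against the ΔTM-labelled library the median was 0.26, with 47 genes above 0, and 15 were called higher and 0 lower, where 4.25% of all genes were higher and 2.91% lower and the median was 0.047. With the median of ratios as the scale, that background was 3.35% higher and 3.70% lower. This left 9 of the 15 called, without COPA, COPG1, GOLGA2, ACBD3, GOSR2 and CREB3, while USO1 became a call in the other direction (−0.62). The 15 were COPA (0.61), COPG1 (0.62), SEC23A (0.82), SEC24A (0.81), ARF4 (0.80), ARFGAP1 (0.71), GOLGA2 (0.63), GOLGA3 (0.87), GOLGB1 (0.72), ACBD3 (0.60), KDELR3 (1.29), GOSR1 (0.73), GOSR2 (0.63), YIPF5 (0.88) and CREB3 (0.59). They include members of all 8 classes. The gene furthest in the other direction was USO1, at −0.56. Both comparisons share the WT library with each other and with the comparison to Luc.

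**Figure D5:**
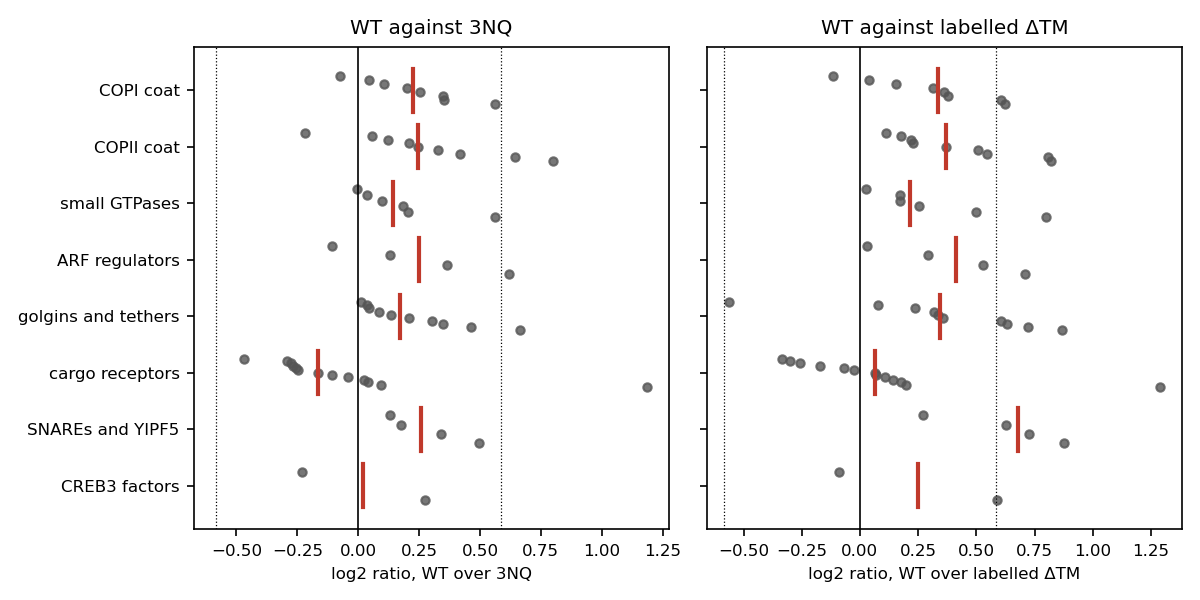
Log2 ratio of WT to 3NQ (left) and to the ΔTM-labelled library (right) on the log2(FPKM + 1) scale (horizontal axes), with 1 point per transport gene, classes in rows and a red bar at each class median. Dotted lines mark 1.5-fold. Cargo receptors are the class with a median below 0 against 3NQ (−0.16), with KDELR3 far to the right at 1.19.

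A list of 88 other genes of ER and Golgi transport, of which 83 passed the filter, stood closer to the background but also leaned to WT. This list, too, was chosen with earlier results known. Its median was 0.12 in WT against −0.017 in 3NQ and −0.049 in the ΔTM-labelled library. In WT, 62 of the 83 genes were above Luc, where 49.1% of all genes were. WT held the highest FPKM of 47 genes (56.6%, against 33.6% of all genes). Called higher in WT were 4 genes (4.82%, against 3.36% of all genes). These 4 were ARL1 (0.96), a trans-Golgi GTPase that recruits golgins, the COG tether subunits COG6 (0.78) and COG3 (0.64), and HSPA5 (0.71). ARL1 had 45.8 FPKM in Luc against 90.3 in WT, 65.1 in 3NQ and 56.8 in the ΔTM-labelled library, the order of ARF4. Of the 17 trans-Golgi coat and ARF factor genes, 16 were above Luc in WT and 16 had their highest FPKM there. The TRAPP tether had 7 of 14 genes above Luc in WT and 0 called. The other cargo receptors, 10 measured genes, had medians of −0.078 in WT and −0.016 in 3NQ, and 0 were called. Their median ratio of WT to 3NQ was −0.028, with 4 genes above 0 and 6 below. The membrane-bound factor ATF6, its relative ATF6B and the proteases MBTPS1 and MBTPS2, which cut CREB3 and ATF6 proteins, were not called in WT. XBP1, an ER stress factor, had 83.5 FPKM in Luc and 109 to 116 in the other libraries.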

How the data were processed

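Poly(A) RNA of MKN28 cells was sequenced on a HiSeq2500 after TruSeq library preparation, in 1 library per group. The authors filtered the reads, mapped them with TopHat to GRCh37 and estimated FPKM with Cufflinks 2.1.1 (both also named in the submitters' processing notes), masking non-coding regions and correcting for reads mapped to several places and fragment bias. The deposited FPKM are thus already scaled for library size and transcript length, and their depth is unknown. Cuffdiff results were not used here. GOSR2, whose symbol is repeated, took the row with the higher mean.

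Ratios on log2(FPKM + 1) were computed in Python 3.11.15 (pandas 2.3.3, numpy 2.4.6, figures with matplotlib 3.10.9) for genes that reached 1 FPKM in any library. A 1.5-fold ratio was called, and the steps were tested on simulated data. The genes, classes, lists and elements were chosen with earlier results of these data known. Named singly were genes called in any comparison and their paralogs, the most abundant gene and the highest and lowest WT ratio of each class, the CREB3 factors, genes under 1 FPKM, and related genes called in WT. Other genes given with values, and the subset of p24 and lectin-like receptors, were chosen after their values were seen, and the class medians under rescaling and the count of overlapping elements were added then. Alternatives were pseudocounts of 0.1 and 5, no filter, an FPKM of at least 5, upper-quartile and median-of-ratios rescaling, summed rows, a 2-fold threshold and the mean of 3NQ and the ΔTM-labelled library as control.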

Additional observations from a re-analysis of the deposited data

Results flagged for a closer look

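2 transport genes lay on opposite sides of Luc by at least 0.25 on the log2 scale in different libraries. SEC23A, a COPII subunit, was above Luc in WT (0.54) and below it in 3NQ (−0.26) and the ΔTM-labelled library (−0.28). GOSR1, a Golgi SNARE, was above Luc in WT (0.46) and below it in the ΔTM-labelled library (−0.27). With 1 library per group, these differences were not tested.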

How the results depend on the processing

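No paired analysis was possible because each group has 1 library and no result comes from a test. The median over all transport genes kept its direction in each of the 5 comparisons, as did each called gene. Of the class medians, those of the COPI coat (−0.010 to 0.057 with the median of ratios and 0.024 with the upper quartile) and the small GTPases (−0.028 to 0.039 and 0.007) turned in the ΔTM-labelled library against Luc, and that of the 2 CREB3 factors (0.021 to −0.010 and −0.002) in WT against 3NQ. The count of transport genes called in WT against Luc, 16 as reported, was 9 with a pseudocount of 5 (16.1%, against 1.25% of all genes called higher). It was 1 with a 2-fold threshold (1.79%, against 0.67%). With the mean of 3NQ and the ΔTM-labelled library as control it was 7 (12.5%, against 2.58%), and the median of 0.35 became 0.19. At a pseudocount of 5, COPG1, GOLGA2, GOLGB1, SEC13, SEC24A, SEC24D and SEC31A were lost by the construction of the scale. COPG1 and SEC31A were also lost with the upper quartile, which left 14 (25%, against 3.31% of all genes). Against that mean, KDELR3, YIPF5, ARF4, GOLGA3, ARFGAP1 and SEC24A were still called and SEC23A (0.81) was gained. With a pseudocount of 0.1, SEC24D was called in addition. This gave 1 gene in 3NQ against Luc (1.79%, against 3.21% of all genes) and 2 in the ΔTM-labelled library (3.57%, against 2.83%). WT against 3NQ gave 3 calls with a pseudocount of 5 (5.36%, against 0.85% of all genes) and 1 at 2-fold (1.79%, against 0.49%). WT against the ΔTM-labelled library, 15 higher and 0 lower as reported, gave 1 at 2-fold (1.79%, against 0.74%) and 10 with a pseudocount of 5 (17.9%, against 1.51%). It gave 9 higher and 1 lower with the median of ratios, where 3.35% of all genes were higher and 3.70% lower. With the upper quartile 11 were higher and 1 lower, where 3.58% of all genes were higher and 3.46% lower. Filters and summed rows kept each count within 1 of that reported. Small differences near the threshold, and those of SEC24D at 1.76 to 3.37 FPKM, are the most affected.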
